A study of Mus musculus with 4 samples.

Results

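Broad H3K9me3 peaks lying next to the centromeres of mouse chromosomes 1 to 19 were described in cultured muscle stem cells with and without induced deletion of Setdb1. In the mm10 assembly each mouse autosome begins at its centromere and its first 3 Mb hold no sequence. A peak belonged to the centromere-proximal set when its midpoint lay below 6 Mb, that is, within the first 3 Mb of assembled sequence of an autosome, 57 Mb in all. The set held 1922 of the 105864 peaks in the ethanol (control) list and 1995 of the 113688 peaks in the list from 4-hydroxytamoxifen-treated cells (called here the tamoxifen list). These were 1.86% and 1.84% of the autosomal peaks of each list. The choice used position alone and no peak value.

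The cells were muscle stem cells taken from mouse muscle by magnetic sorting and grown as primary cultures. Both groups carried the genotype Setdb1lox/lox, in which loxP sites flank Setdb1, together with a Cre recombinase that the Pax7 gene drives and tamoxifen activates. The labels write that allele as Pax7GakaCreERT2 for the control and with the ending CreERT3 for the deleted cells. Control cells received ethanol and the deleted cells 4-hydroxytamoxifen, each for 72 h before native H3K9me3 chromatin immunoprecipitation after digestion with micrococcal nuclease. There was 1 H3K9me3 library and 1 input library per condition, and the input libraries were not analysed here. With 1 library per group no difference between the lists has a replicate check, no test between conditions was possible, and sequencing depth is unknown. Because the Cre acts only where Pax7 is or was active, cells of another type in the cultures would keep Setdb1. The share of cells that lost the gene is not given in the sources used here. Peaks covered 0.888% of the Setdb1 window in the ethanol list and 0% in the tamoxifen list, which does not measure the deletion. Pax7, Myod1 and Myog, which mark muscle stem cells and their descendants, had 0% in both lists, and a peak list of a silencing mark cannot show whether they were expressed.

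H3K9me3 is the trimethylated form of lysine 9 of histone H3, a mark of constitutive heterochromatin that HP1 proteins bind. Mouse centromeres are flanked by large arrays of satellite repeats whose H3K9me3 is written mainly by the methyltransferases SUV39H1 and SUV39H2. SETDB1 is a separate H3K9 methyltransferase that KRAB zinc finger proteins and TRIM28 bring to retroelements and to clustered gene families. The satellite arrays themselves are largely missing from the assembly, so the peaks described here lie in the assembled sequence that follows. Repeat content was not analysed, so whether any of these peaks, including those of highest q, lie on assembled satellite sequence is not known here.

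Sequences at which peaks of the region met annotated regulatory or RNA genes are shown first, since they are the members that touch a gene's control or RNA sequence directly. RefSeq promoter sequences of GRCm38.p6, each 300 bases that end shortly inside a gene's start, matched 873 entries of 690 gene symbols in the region. A peak touched 4 of them (0.458%, Wilson interval 0.178 to 1.17%), against 3.19% of 31396 autosomal promoters. Of the 4, 3 met a control peak only, 1 met a tamoxifen-list peak only, and none met a peak in both lists. Over all autosomes 1000 promoters met a peak and 79.6% of them met one in a single list, so the split of these 4 is near the background. They are printed from 5′ to 3′ with every CG in capitals, since CG is the site of promoter DNA methylation.
1700095K22Rik, chr7:3980860-3981159, plus strand: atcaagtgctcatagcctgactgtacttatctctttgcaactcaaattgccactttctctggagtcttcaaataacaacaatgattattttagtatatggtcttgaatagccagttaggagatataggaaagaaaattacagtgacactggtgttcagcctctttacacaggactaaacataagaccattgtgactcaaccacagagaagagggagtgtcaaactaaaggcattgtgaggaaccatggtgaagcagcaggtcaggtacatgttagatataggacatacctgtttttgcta
Cd209e, chr8:3854237-3854536, minus strand: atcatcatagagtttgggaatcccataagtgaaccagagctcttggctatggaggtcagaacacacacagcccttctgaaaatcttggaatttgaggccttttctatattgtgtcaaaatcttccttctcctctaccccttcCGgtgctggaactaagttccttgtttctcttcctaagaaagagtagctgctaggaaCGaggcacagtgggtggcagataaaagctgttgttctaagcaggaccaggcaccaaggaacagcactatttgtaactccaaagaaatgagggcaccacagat
Gm40644, chr13:3169660-3169959, minus strand: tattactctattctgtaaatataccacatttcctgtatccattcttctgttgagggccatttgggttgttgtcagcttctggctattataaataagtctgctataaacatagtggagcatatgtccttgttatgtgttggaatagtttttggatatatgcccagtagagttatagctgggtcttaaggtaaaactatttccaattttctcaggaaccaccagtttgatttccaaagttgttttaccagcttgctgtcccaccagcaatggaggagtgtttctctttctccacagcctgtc
C6, chr15:4726960-4727259, plus strand: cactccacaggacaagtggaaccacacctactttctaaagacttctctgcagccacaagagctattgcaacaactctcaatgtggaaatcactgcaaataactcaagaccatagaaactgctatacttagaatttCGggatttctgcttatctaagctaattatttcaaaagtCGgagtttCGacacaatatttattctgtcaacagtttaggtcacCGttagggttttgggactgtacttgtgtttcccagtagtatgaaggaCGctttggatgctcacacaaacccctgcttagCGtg

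The 4 promoters ranged from no CG to a common number. The sequence CG, which reads the same on both strands, occurred 0 times in the promoters of 1700095K22Rik and Gm40644, 2 times in that of Cd209e and 6 times in that of C6, against a median of 8 over the region's promoters. As few as 6 were found in 44.1% of those. The 996 promoters that met a peak elsewhere had a median of 1, so low CG is not particular to these. CG was present in 95.5% of the region's promoters and in 94.8% of all autosomal ones. The control peaks were modest, with the authors' fold enrichment over background at 2.35 for 1700095K22Rik, 2.39 for Cd209e and 2.61 for Gm40644. They covered 73.7%, 51.3% and 100% of those promoters. Cd209e encodes a C-type lectin of the DC-SIGN family. C6 encodes a complement component of the membrane attack complex. Its promoter was wholly covered by a tamoxifen-list peak of fold 2.46, and the nearest control peak lay 3.96 kb away. A peak touching a promoter says nothing here of whether the gene was silent.

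Small RNA genes gave a second set. The sequence table placed 23 microRNA genes in the region, and 3 had a peak within 5 kb, 3 in the ethanol list and 1 in the tamoxifen list. Of all genes of the region 32.1% had a peak in the gene or within 5 kb of it. The share over all autosomal microRNA genes was not computed. The difference between the lists rested on 1 control peak that lay near 2 of these genes. Mature sequences are printed with the seed (bases 2 to 8) in capitals, because the seed sets target choice. No seed was shared among the 5.
mmu-miR-489-3p: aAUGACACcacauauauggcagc
mmu-miR-489-5p: uGUCAUAUgugugaugacacuuucu
mmu-miR-653-3p: uUCACUGGaguuuguuucagu
mmu-miR-653-5p: gUGUUGAAacaaucucuacug
mmu-miR-101c: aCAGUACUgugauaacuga

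Mir489 and Mir653 lie in a cluster within Calcr, the calcitonin receptor gene, on chromosome 6. Both miR-489 and the calcitonin receptor are known for keeping muscle stem cells quiescent, and the locus was singled out after its values were seen. The same control peak, of fold 2.75 and −log10 q of 1.86, lay 3.22 to 3.86 kb from the mature sequences of Mir489 and Mir653. It did not pass a −log10 q of 2. The nearest tamoxifen-list peak lay 44.7 to 45.3 kb away. Peaks covered 1.48% of the Calcr window in the ethanol list and 0% in the tamoxifen list. Of all control peaks of the region 52.7% had no partner in the tamoxifen list. The rest of chromosome 6 was covered 0.504 times as much in the tamoxifen list. The difference at Calcr thus stands beside a chromosome-wide one, whose part in it was not tested. Mir101c lay 0.49 kb from the block of peaks at the start of chromosome 9 described below, in both lists. The Mir290 to Mir295 cluster on chromosome 7, known for its expression in embryonic stem cells, had no peak within 5 kb in either list.

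The region as a whole carried fewer H3K9me3 peaks than the remainder of the autosomes, in both lists. Coverage means the percent of bases lying under a peak. Peaks covered 2.35 Mb (4.11%) of the region in the ethanol list and 2.33 Mb (4.09%) in the tamoxifen list. The rest of the autosomes was covered at 5.49% and 5.41%. There were 33.7 and 35.0 peaks per Mb near the centromere, and 43.1 and 45.4 elsewhere. The deleted-to-control ratio of covered bases in the full lists was 0.994 near the centromere and 0.984 elsewhere. The closeness of these 2 ratios depended on chromosome 6. Without it, coverage was 4.19% and 4.23% near the centromere, and 5.16% and 5.41% elsewhere. It also depended on the q threshold, as given in the closing section. The lower coverage was carried by the full lists. Among peaks whose −log10 q, as given by the authors, was at least 3, the near-to-rest ratio of coverage reversed, with a log2 value of 1.07 in the ethanol list and 1.56 in the tamoxifen list. Unsequenced gaps inside the region could not be subtracted, since no genome sequence was used.

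Coverage was lower near the centromere both outside and inside genes. Genes took 48.2% of the bases near the centromere and 49.3% elsewhere. Outside genes, coverage was 6.20% and 6.14% near the centromere, against 7.71% and 7.49% elsewhere. Inside genes it was 1.87% and 1.89%, against 3.22% and 3.27%. Of the centromere-proximal peaks, 1249 control peaks (65.0%, 62.8 to 67.1%) and 1282 tamoxifen-list peaks (64.3%, 62.1 to 66.3%) had midpoints over 5 kb from any gene, a class that takes 40.5% of the region's bases. The same class held 60.8% and 60.0% of peaks elsewhere. Protein-coding genes held 17.7% and 17.9% of the centromere-proximal peaks but 39.4% of the bases.

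Coverage changed with distance from the first assembled base. In steps of 0.5 Mb, control coverage was 6.18%, 3.03%, 3.56%, 3.60%, 3.51% and 4.82%. Deleted-list coverage in the same steps was 6.30%, 3.02%, 3.59%, 3.36%, 3.44% and 4.83%. Both lists were thus high in the first step, fell by about equal amounts in the next, and climbed again towards the edge of the region. Beyond it, coverage was 5.21% and 4.93% from 6 to 7 Mb, and it reached 10.7% and 10.0% from 19 to 20 Mb. The climb was not steady, since the step from 8 to 9 Mb had 3.73% and 3.75%, below the region's 4.11% and 4.09%. Coverage in the first 0.5 Mb exceeded that of the whole 3 Mb on 13 of the 19 chromosomes in each list. It exceeded that of the chromosome's own remainder on 9 chromosomes in the ethanol list and 8 in the tamoxifen list. At the position of the edge nothing abrupt was seen, with 91 and 94 peaks in the last 100 kb inside it and 88 and 99 in the first 100 kb outside. The median fold of those peaks was 2.55 and 2.60 inside, and 2.58 and 2.57 outside.

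**Figure D1:**
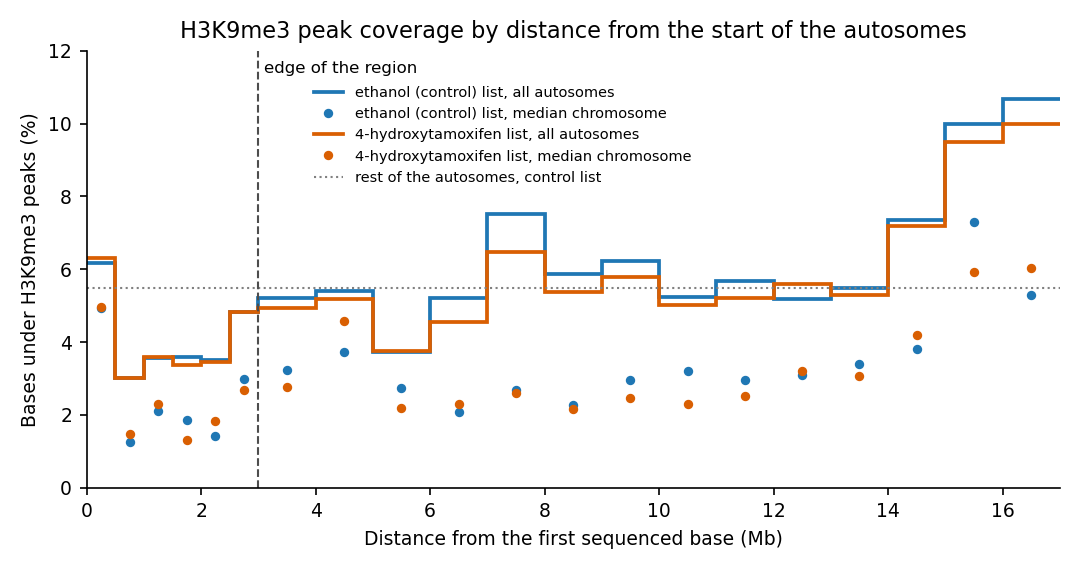
Percent of autosomal bases under H3K9me3 peaks (vertical axis) against distance from the first assembled base in Mb (horizontal axis), for the control and tamoxifen lists. Lines pool the 19 autosomes, points are the median chromosome, the dotted line is the control level over the rest of the autosomes (5.49%), and both lines fall from over 6% in the first 0.5 Mb to about 3.0% in the next step.

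The high first step was concentrated at its very start. In steps of 100 kb, control coverage was 10.2%, 7.79%, 5.76%, 4.10% and 3.04%, and tamoxifen-list coverage was 10.6%, 7.85%, 6.78%, 3.28% and 3.04%. Without chromosome 9 the first step was 8.70% and 9.04%. Chromosomes contributed unequally to it. Coverage of the first 100 kb was 37.1% and 38.4% on chromosome 9, 34.6% and 40.4% on chromosome 3, and 27.7% and 30.3% on chromosome 4. It was 23.6% and 33.2% on chromosome 17, 22.1% and 18.7% on chromosome 18, and 17.3% and 17.1% on chromosome 1. Chromosomes 10, 11, 14, 15 and 16 had 0% in both lists, and chromosome 8 had 1.51% in the ethanol list and 0% in the tamoxifen list. The starts of chromosomes therefore ranged from empty to heavily covered.

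Peaks of high confidence were denser close to the centromere. The authors' −log10 q was used to rank peaks inside each list. In the ethanol list 59 centromere-proximal peaks (3.07%, 2.39 to 3.94%) had −log10 q of 3 or more, against 1.83% of the other autosomal peaks. In the tamoxifen list these were 47 (2.36%, 1.78 to 3.12%) against 0.979%. The excess lay mostly at the very start. In the first 0.5 Mb 22 of 369 control peaks (5.96%, 3.97 to 8.86%) and 28 of 382 tamoxifen-list peaks (7.33%, 5.12 to 10.4%) passed. In the next 0.5 Mb the counts were 8 of 285 control peaks and 0 of 284 tamoxifen-list peaks. Peaks at −log10 q of 10 or more were rare outside the region, with 14 control peaks and 18 tamoxifen-list peaks over the rest of the autosomes. Near the centromere there were 7 in each list, which is 0.364% and 0.351% of the set against 0.0138% and 0.0169% elsewhere. These shares rest on few places. Of the 7, 2 in the ethanol list and 3 in the tamoxifen list were pieces of 1 block on chromosome 9, described below. Among the 20 autosomal peaks of highest q, 6 in the ethanol list and 7 in the tamoxifen list were centromere-proximal, and every one of these lay within the first 200 kb.

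**Figure D2:**
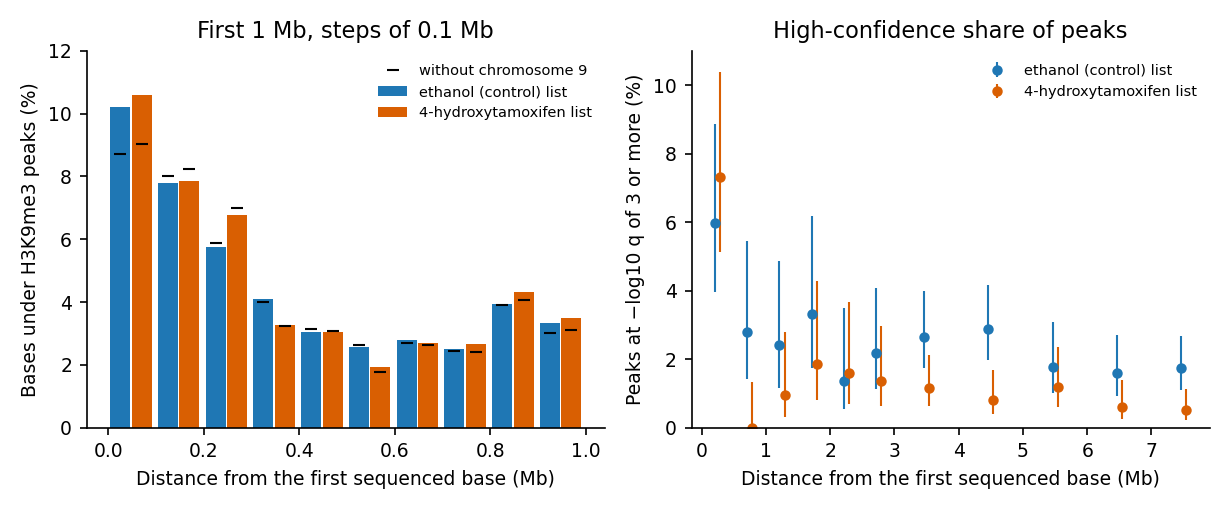
Left: percent of bases under peaks in steps of 0.1 Mb over the first 1 Mb of assembled sequence, with dashes giving the value without chromosome 9. Right: percent of peaks at −log10 q of 3 or more by distance in Mb, with 95% Wilson intervals (counting error only), where the first 0.5 Mb reaches 5.96% in the ethanol list and 7.33% in the tamoxifen list.

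The block of highest q opened chromosome 9. In the ethanol list it consisted of chr9:3000039-3009956 (fold 2.30, −log10 q of 163) and chr9:3011512-3038190, the widest peak of the set at 26679 bp (fold 2.49, −log10 q of 159). In the tamoxifen list the first peak had the same borders (−log10 q of 138). The second ran over chr9:3011802-3032906, 21105 bp (−log10 q of 169), and a further one over chr9:3033952-3038190 (−log10 q of 104). The block began 38 bases after the first assembled base, ended at the same base in both lists, and was split once more in the tamoxifen list. No gene of the table overlapped it. Mir101c, within 5 kb, had 44.9% and 42.1% of its window covered. The folds of the block were not high. They were 2.30 and 2.49 in the ethanol list and 2.20, 2.61 and 2.19 in the tamoxifen list, beside region medians of 2.56 and 2.60. The folds of 2.30, 2.20 and 2.19 lay below the lower quartiles of the region, which were 2.44 and 2.48.

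The other peaks of highest q were also common to both lists. The peak at chr4:3089563-3091144 had fold 3.58 and −log10 q of 63.5 in the ethanol list. Its tamoxifen-list partner, chr4:3089547-3091144, had fold 3.72 and −log10 q of 65.0. On chromosome 11 the peak chr11:3100024-3104733 (fold 3.21, −log10 q of 49.2) had a partner with fold 2.85 and −log10 q of 36.3. Chromosome 11 held 9 of the −log10 q of 3 or more peaks in each list, 5 and 8 of them in the first 200 kb. Several overlapped Sfi1, which encodes a centrin-binding protein of the centrosome. Its window was covered at 23.0% in the ethanol list and 30.5% in the tamoxifen list. Chromosome 4 held 4 such peaks in the ethanol list and 7 in the tamoxifen list, and chromosome 9 held 5 in each. High q did not always go with high fold. In the ethanol list chr18:3004265-3006379 had −log10 q of 10.2 but fold 1.60, rank 103252 of 103258 autosomal peaks by fold. In the tamoxifen list chr11:3187535-3199998, which overlapped Sfi1, had −log10 q of 12.5 but fold 1.76, rank 108583 of 108595. Both had a partner in the other list.

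Peaks present in 1 list alone seldom had high q. Of the ethanol-list peaks 3 unshared (0.296%, 0.101 to 0.868%) and 56 shared ones (6.15%, 4.77 to 7.91%) had −log10 q of 3 or more. In the tamoxifen list these were 7 (0.648%, 0.314 to 1.33%) and 40 (4.38%, 3.23 to 5.90%). Shared peaks are also wider. The highest-fold tamoxifen-list peak without a control partner was chr11:3148524-3148801, inside Sfi1, with fold 4.88 and −log10 q of 7.40, 12.8 kb from the nearest control peak. It ranked 5 by fold and 33 by q among all autosomal peaks of that list. The next were chr15:5298110-5298751 with fold 4.50 and −log10 q of 6.04, which overlapped the predicted gene Gm41257, and chr8:4791371-4792625 with fold 3.54, whose nearest control peak was 315 bases away. In the ethanol list the highest were chr5:5560982-5561368 (fold 3.54, 1.44 kb from Gtpbp10), chr3:4923551-4923857 (3.48) and chr2:3076611-3077774 (3.29). Their nearest tamoxifen-list peaks lay 10445, 3569 and 2829 bases away.

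Centromere-proximal peaks were slightly narrower than others and alike in fold. Median width was 854 bp in the ethanol list and 809 bp in the tamoxifen list, against 913 bp and 863 bp over the rest. The median of the authors' fold was 2.56 and 2.60 near the centromere, against 2.57 and 2.59. Peaks of 5 kb or more numbered 38 in each list (1.98% and 1.90%), against 1.78% and 1.28% elsewhere. After the block on chromosome 9, the widest control peak was that over Zfp958, a zinc finger gene, at chr8:4623062-4637641 (14580 bp, fold 3.19). The tamoxifen list had a 14277 bp peak there. The widest tamoxifen-list peaks after chromosome 9 included chr17:3018108-3033357 (15250 bp) and chr4:3058641-3072874 (14234 bp).

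Centromere-proximal peaks were shared between the lists somewhat less often than others. A peak was shared when it overlapped a peak of the other list by at least 1 bp. Of the control peaks 1012 (52.7%, 50.4 to 54.9%) had no partner, beside 46.7% of all autosomal control peaks. Of the tamoxifen-list peaks 1081 (54.2%, 52.0 to 56.4%) had none, beside 48.5%. Both shares stood above the background by more than counting error, which is not the error between libraries. Low sharing was not confined to the region, where 47.3% and 45.8% were shared. From 8 to 9 Mb it was 46.9% and 48.0%, and from 9 to 10 Mb 47.4% and 46.8%, while from 19 to 20 Mb it was 55.5% and 55.6%. Within the region sharing was highest at the start, at 54.5% of control peaks and 52.1% of tamoxifen-list peaks in the first 0.5 Mb. In the next 0.5 Mb it was 42.8% and 43.0%. Shared peaks were wider, with medians of 1229 bp and 1158.5 bp, than unshared ones at 649 bp and 608 bp, and a wide peak meets another more easily. When a peak within 5 kb counted as a partner, 78.3% and 78.8% were shared.

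Chromosomes differed far more from each other than the lists did. Chromosome 1 was covered at 13.1% in its first 3 Mb in the ethanol list and 11.6% in the tamoxifen list, against 6.72% and 6.23% over its remainder. Chromosome 9 was covered at 11.2% and 10.1%, against 4.07% and 4.05%, which gave near-to-rest ratios of 2.75 and 2.49. Chromosome 8 had 8.10% and 7.82%, against 5.73% and 5.95%. Chromosome 3 had 7.62% and 7.21%, against 6.37% and 5.87%. These 4 chromosomes were the only ones covered more near the centromere than elsewhere in the ethanol list, and they held 978 (50.9%) of the control peaks and 960 (48.1%) of the tamoxifen-list peaks. In the tamoxifen list chromosome 16 joined them.

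The other chromosomes were covered less at their centromeric end. Coverage was 4.71% and 4.59% on chromosome 4, 4.41% and 4.20% on chromosome 18, and 4.38% and 4.62% on chromosome 13. It was 4.22% and 5.23% on chromosome 7, 3.18% and 5.02% on chromosome 16, and 2.73% and 1.67% on chromosome 6. Chromosomes 12, 15, 11 and 10 had 2.57% and 2.60%, 2.51% and 2.94%, 2.21% and 2.54%, and 2.02% and 1.95%. At the low end were chromosome 5 at 1.81% in both lists, chromosome 2 at 1.66% in both, chromosome 17 at 1.49% and 1.82%, and chromosome 19 at 0.253% and 0.383%. Chromosome 17 was covered at 7.97% and 8.05% over its remainder, so its ratios were 0.187 and 0.226.

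Chromosome 14 had no peak near the centromere in either list. Its first peaks lay at 7.73 Mb in the ethanol list and 8.77 Mb in the tamoxifen list. The table placed 103 genes in that stretch, 97 of them with predicted Gm names, and the rest of the chromosome was also sparse, at 0.384% and 0.325%. The most covered chromosome starts held a smaller share of genic bases than the 48.2% of the whole region. Genes took 16.2% of the bases on chromosome 3, 29.4% on chromosome 8, 37.2% on chromosome 9 and 40.2% on chromosome 1. They took 73.1% on chromosome 12, 71.8% on chromosome 11 and 70.0% on chromosome 19. This order was not exact, since chromosomes 4 and 13, with 24.0% and 25.9%, were covered below their own remainder.

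**Figure D3:**
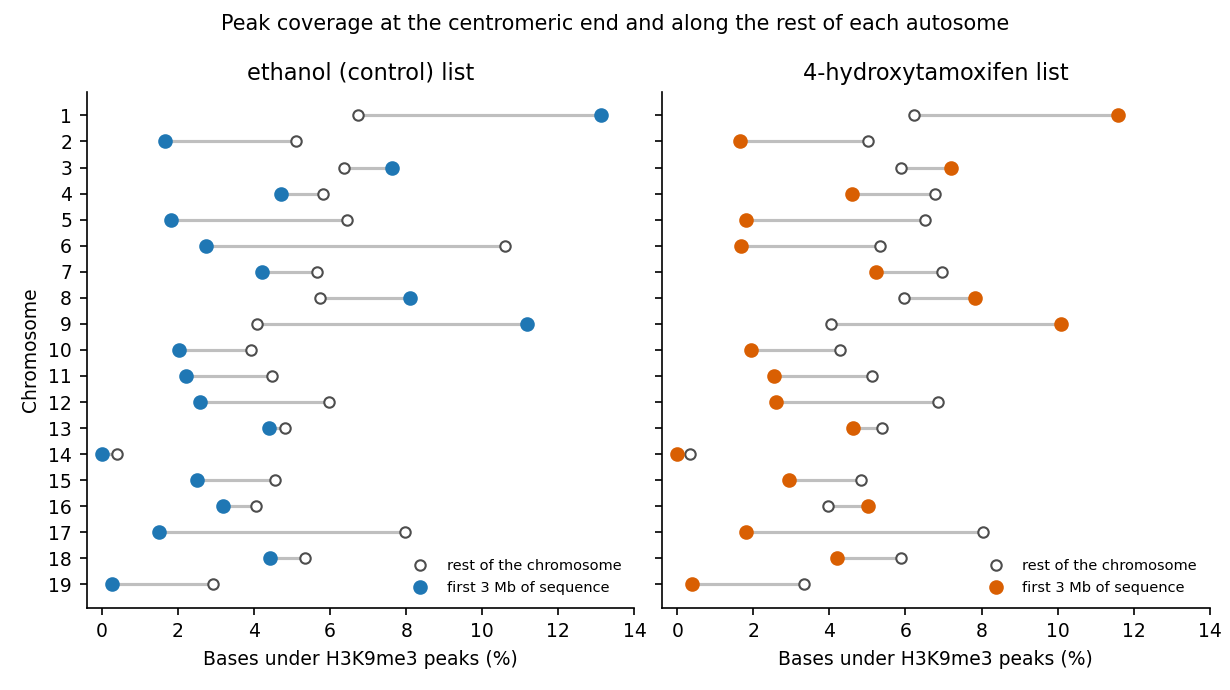
Percent of bases under H3K9me3 peaks (horizontal axis) in the first 3 Mb of assembled sequence (filled) and over the remainder (open) of each autosome (vertical axis), one panel per list. Chromosomes 1, 3, 8 and 9 have the filled point to the right of the open one in both panels, and chromosome 16 only in the 4-hydroxytamoxifen panel.

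Setting the lists against each other by chromosome gave ratios on both sides of 1. Of the 18 chromosomes with peaks, 9 had a deleted-to-control ratio of covered bases below 1 near the centromere and 9 above 1, with a median of 0.998. Over the remainder of the same chromosomes 12 were above 1, with a median of 1.05. The near and the remaining ratio lay on the same side of 1 on 13 chromosomes. Chromosome 6 fell lowest, at 0.613 near the centromere, where 72 control peaks stood against 45, and at 0.504 over its remainder. Chromosome 16 was highest, at 1.58, with 81 control peaks against 118, while its remainder was at 0.985. Chromosome 19 reached 1.51 on 12 and 15 peaks alone. Chromosome 7 was at 1.24 and 1.23, and chromosome 17 at 1.22 and 1.01. Chromosomes 1 and 9, the most heavily covered, were at 0.884 and 0.902 near the centromere, against 0.927 and 0.994.

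**Figure D4:**
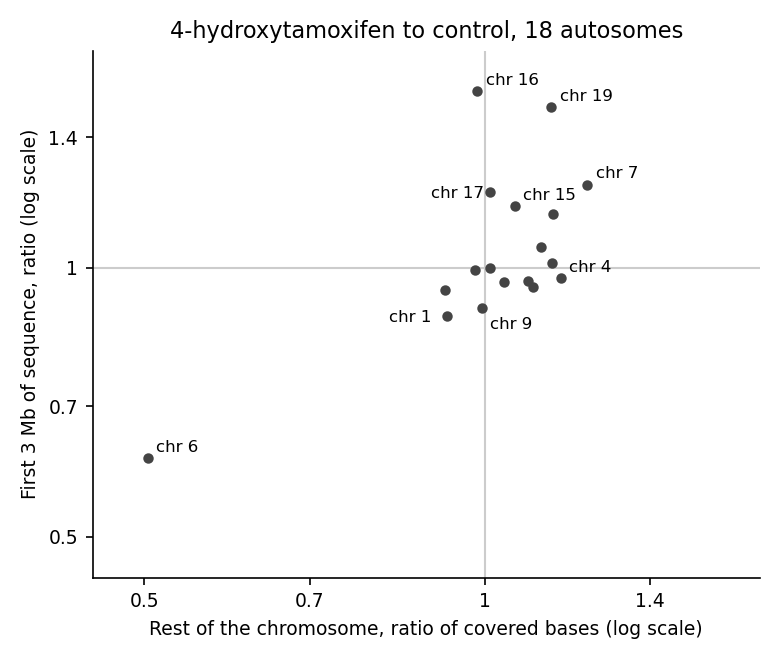
Deleted-to-control ratio of bases under peaks in the first 3 Mb of assembled sequence (vertical axis) against the same ratio over the remainder (horizontal axis), both on log scales, 1 point per autosome without chromosome 14. Chromosome 6 is low on both axes (0.613 and 0.504), and chromosome 16 is high on the vertical axis alone (1.58 against 0.985).

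Windows of 100 kb rarely changed much. Of 570 windows in the region, coverage was lower by 10 percentage points or more in the tamoxifen list in 4 (0.702%), beside 2.28% of all autosomal windows. It was higher by that much in 3 (0.526%), beside 1.51%. The region also began from a lower coverage in the ethanol list, 4.11% against 5.49%, and the part of that in these shares was not tested. The falls were at chr1:3600001-3700000 over Xkr4 (17.2% to 5.33%), chr7:5800001-5900000 over the pheromone receptor genes Vmn1r63 and Vmn1r64 (17.2% to 6.59%), chr1:4300001-4400000 over Rp1 (22.2% to 11.7%) and chr9:5000001-5100000 with no gene (18.8% to 8.38%). The rises were at chr7:5900001-6000000 over vomeronasal pseudogenes (19.5% to 37.5%), chr3:3200001-3300000 (12.7% to 29.3%) and chr16:3600001-3700000 over olfactory pseudogenes (2.76% to 14.3%). On chromosome 7 a fall and a rise were neighbours. On chromosome 1 the fall over Rp1 stood next to a smaller rise, from 10.5% to 20.0% at chr1:4200001-4300000, and Rp1 as a whole was covered at 18.6% and 18.8%.

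Peaks met the windows of a smaller share of genes here than over all autosomes. A gene window was the gene with 5 kb on both sides. Of 1297 genes, 416 (32.1%) had a peak in the window in either list, against 38.2% of all autosomal genes. Of 606 protein-coding genes 169 (27.9%) did, against 36.6%. Among the 416 genes 215 were covered more in the tamoxifen list and 201 less. Coverage was lower by 10 points or more in the tamoxifen list for 33 genes (2.54%), beside 3.65% of all autosomal genes, and higher for 28 (2.16%), beside 3.84%. Among protein-coding genes it was lower for 6 (0.990%), beside 2.68%, and higher for 4 (0.660%), beside 2.45%. Neighbouring genes share peaks, so these genes are not independent of each other.

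Among the 10 gene lists the receptors for odours and pheromones had the highest mean coverage. Of 38 olfactory and vomeronasal receptor genes and pseudogenes 28 had a peak, 17 were covered more in the tamoxifen list and 11 less. Their mean coverage was 8.75% in the ethanol list and 12.1% in the tamoxifen list, against 2.13% and 2.21% over all genes of the region. Their medians were 4.36% and 8.71%, and the median gene of the region had 0%. Vmn1r61 on chromosome 7 was covered at 31.8% and 47.0%, Vmn1r59 at 7.98% and 30.1%, and Vmn1r56 at 0% and 13.01%. In the other direction, Vmn2r28 had 20.1% and 7.74%, Vmn1r64 20.4% and 9.69%, and Vmn1r238 on chromosome 18 had 44.7% and 29.4%. Gains and losses lay side by side in the full lists within the chromosome 7 cluster, where Vmn1r60 had 18.5% and 14.9% and Vmn1r57 had 0.348% and 9.69%. The differences at Vmn1r56, Vmn1r59, Vmn1r61 and Vmn1r64 were 0 at −log10 q of 2 or more, and those at Vmn1r59, Vmn1r61 and Vmn1r64 were 0 by gene body alone. Vmn2r28 kept falls of -9.77 and -7.64 points under these settings. Vmn1r238 differed by 0 by gene body alone, and with −log10 q at least 2 it was 4.79 points higher in the tamoxifen list. Elsewhere Olfr161 on chromosome 16 had 17.8% and 27.6%, and Vmn1r3 on chromosome 4 had 19.9% and 23.9%.

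Zinc finger genes and immune genes gave single covered members. Of 12 Zfp genes 4 had a peak, and Zfp958 was the most covered gene of all that were named, at 49.4% and 48.6%. Its gene body alone was covered 11.6 points more in the tamoxifen list, where the tamoxifen-list peak, chr8:4620808-4635084, reached farther in. On chromosome 8 Cd209a and Cd209b, which encode lectins that bind pathogen sugars, had 16.9% and 0%, and 26.5% and 1.70%. By gene body alone the falls were -5.72 and -4.55 points, and at −log10 q of 2 or more neither list had a difference there, so the 10-point call was lost. Their neighbour Cd209e went the other way over its whole window, at 8.27% and 13.3%, although its promoter met a control peak only. Slc10a2, the ileal bile acid transporter, had 11.9% and 2.41%, a difference of -1.63 points by gene body alone. Casp1, the inflammatory caspase, had 2.57% and 0%, and 2 of the 3 genes of its cluster had a peak, both in the ethanol list alone. Nlrp2, of the NOD-like receptor family, had 9.50% and 7.39%. On chromosome 15 the complement genes C6 and C7, the growth hormone receptor gene Ghr and the caspase recruitment gene Card6 had a peak each, and C7, another part of the membrane attack complex, had 2.35% and 6.49%. Of 9 Akr1 genes, which encode aldo-keto reductases of steroid metabolism, 5 had a peak and 4 were covered more in the tamoxifen list, with Akr1c20 at 0.789% and 10.2%. The shares of Zfp, Akr1, caspase-cluster and chromosome 15 genes with a peak stand beside 32.1% for all genes of the region. Among all genes of the region, 215 were covered more in the tamoxifen list and 201 less. The share of genes with a peak in the ethanol list alone was not computed. Of the region's control peaks 52.7% had no partner.

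**Figure D5:**
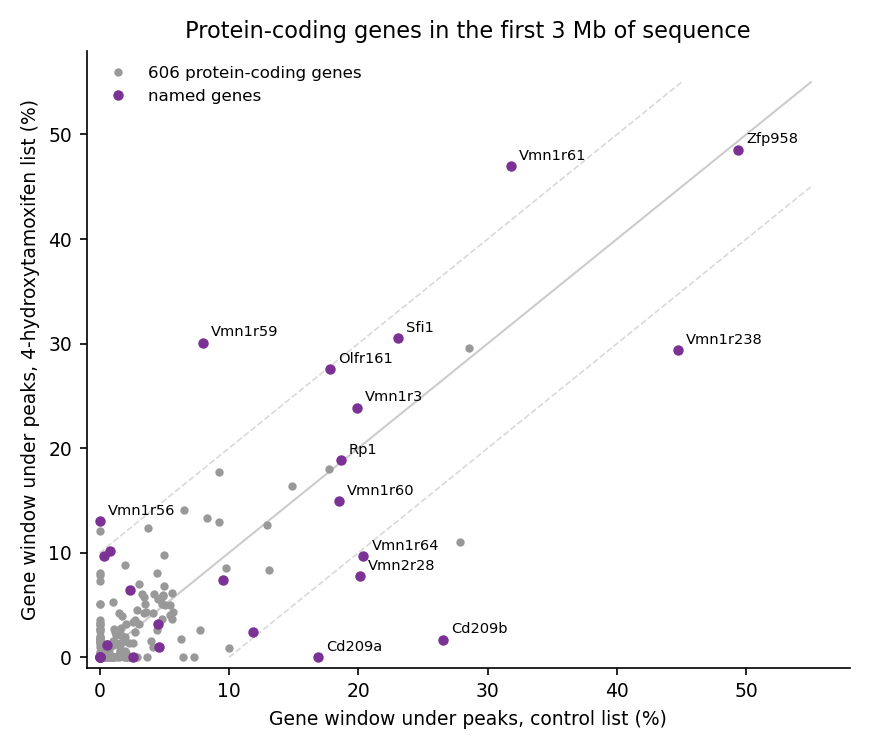
Percent of each gene window (gene with 5 kb on both sides) under peaks in the ethanol list (horizontal axis) and the 4-hydroxytamoxifen list (vertical axis) for the 606 protein-coding genes of the region, with equal values on the solid line and differences of 10 points on the dashed lines. Most genes lie at or near 0, Zfp958 lies on the line at 49.4% and 48.6%, and Cd209b lies far below it at 26.5% and 1.70%.

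Most genes of chromatin regulation were free of peaks, as were most protein-coding genes of the region. Of 13 chromatin regulators 11 had none in either list, beside 437 of all 606 protein-coding genes of the region. Coverage of the other 2 regulators was low. Suv39h2, an H3K9 methyltransferase, Dnmt3a, a DNA methyltransferase, Kmt5c, an H4K20 methyltransferase of pericentric heterochromatin, and Morc2a, which works with the HUSH silencing complex, were all at 0% in both lists. Crebbp, an acetyltransferase, had 0.581% and 1.21%. Of 15 muscle and mesenchyme genes 7 had a peak, with 1 covered more in the tamoxifen list and 6 less. None of the 15 differed by 10 points or more. Of the region's 606 protein-coding genes 169 (27.9%) had a peak, with 92 covered more and 77 less. Whether the 15 genes differ from these was not tested. Mean coverage of the muscle and mesenchyme genes was low, at 0.817% and 0.423%. Zeb1, a transcription factor of mesenchymal cells, had 4.51% and 3.16%. Of the 9 genes around the imprinted gene Peg10 on chromosome 6, 3 had a peak, a share near that of all genes of the region, and these 3 were covered less in the tamoxifen list, with Pon3 at 4.59% and 0.959%. Chromosome 6 as a whole was covered less in that list, and its part in this was not tested. Malat1 and Neat1, abundant nuclear noncoding RNAs, had no peak in either list.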

How the data were processed

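H3K9me3 was profiled in 1 control and 1 deleted library of cultured mouse muscle stem cells. The authors deposited 2 broad-peak lists. Each deposited peak carries the authors' score, fold enrichment (a linear ratio), −log10 p-value and −log10 q-value. The submitters' processing notes list BWA 0.7.17-r1188, MACS2, ChIPseeker 1.30.3 and build mm10. How MACS2 was set, whether it used the inputs and whether samples were pooled is not given in the sources used here. Fold and q served only for description, ranking and filtering inside 1 list. Peak names and sample labels carry different replicate numbers, and each list was therefore matched to its library by condition.

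Peaks were assigned to the region by midpoint. Covered bases, overlaps (minimum 1 bp), distances and windows were computed with Python 3.11.15, pandas 2.3.3, numpy 2.4.6 and scipy 1.17.1, checked on simulated lists and against bedtools 2.31.1, and drawn with matplotlib 3.10.9. Shares have Wilson intervals at 95%, for counting error alone. With 1 library per group no p-value was computed. A gene, window or bin was called at a difference of 10 percentage points. Genes were placed with the RefSeq table of GRCm38.p6 (the chromosomes of mm10), and 328 entries placed below 3 Mb were left out. Promoter and microRNA sequences came from RefSeq tables of the same build. The table gave no exons, and repeat content was not analysed here. The same stretch of chromosome X was left out of the comparisons.

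The region and the 10 gene lists were chosen with earlier results of these data known. Named genes were the 10 protein-coding genes with the highest control coverage, the 6 with the largest fall, the 6 with the largest rise, the most covered member of each list, and Suv39h2, Dnmt3a, Morc2a, Kmt5c and Sfi1, leaving out predicted names. Named peaks were the 5 of highest fold and the 5 widest per list, those of highest q, and the 3 of highest fold without a partner, of which the report prints part. Calcr, C6, Cd209e and the microRNAs were named after their values were seen. Alternatives covered the q and fold thresholds, peak joining, the region's edge, the overlap rule, list size, gene windows, bins and single chromosomes.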

Additional observations from a re-analysis of the deposited data

Results flagged for a closer look

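Chromosome X, which lay outside the comparisons, also begins at its centromere. Its stretch from 3 to 6 Mb held 21 control peaks and 49 tamoxifen-list peaks, a count in data outside the comparisons that was higher than in the control. Coverage there was 0.549% in the ethanol list and 1.37% in the tamoxifen list, a ratio of 2.496. The rest of chromosome X held 2416 and 4843 peaks, with a ratio of covered bases of 2.26. There was 1 library per group and the difference was not tested.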

How the results depend on the processing

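The lower coverage near the centromere had a log2 near-to-rest ratio of -0.42 in the ethanol list and -0.40 in the tamoxifen list. It stayed negative in 12 of 13 alternatives for the ethanol list and 12 of 14 for the tamoxifen list, since equal list size leaves the smaller, ethanol list as it is. With −log10 q at least 2 it was -0.046 and 0.23, and with at least 3 it was 1.07 and 1.56, so the direction depends on the threshold. It was -0.31 and -0.29 outside genes, -0.25 and -0.21 below 4 Mb, -0.31 and -0.32 below 9 Mb, -0.97 and -0.87 for the median chromosome, -0.59 and -0.54 with peaks joined within 5 kb, -0.62 and -0.55 against 6 to 20 Mb, and -0.58 and -0.54 without chromosome 9. In the ethanol list it was -0.30 without chromosome 6 and -0.29 without chromosomes 6 and 14, and in the tamoxifen list -0.30 at or above the median fold. The first 0.5 Mb against the next 2.5 Mb, with log2 ratios of 0.74 and 0.79, rose to 1.28 and 2.05 with −log10 q at least 2. The log2 ratio of the lists over the region was -0.0081, smaller than the counting error of the peaks. It became -0.40 with −log10 q at least 2, -0.20 with at least 3 and 0.12 at or above the median fold. The falls at the q thresholds were not particular to the region. Peaks with −log10 q at least 2 numbered 391 and 270 in the region, and 19253 and 12420 over the rest of the autosomes. At both thresholds the near-to-rest ratio was higher in the tamoxifen list, so coverage fell by more over the rest than in the region. Whether q is comparable between the lists was not tested.

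Shared percent, 47.3% and 45.8%, was 25.3% and 35.9% with −log10 q at least 2, 28.8% and 38.3% with at least 3, 38.7% and 35.8% at or above the median fold, 30.2% and 29.7% for an overlap of at least 50%, 57.2% and 57.97% with joined peaks, and 78.3% and 78.8% within 5 kb. Below 4 Mb the tamoxifen list had 48.2%. Genes lower and higher by 10 points, 33 and 28, became 7 and 8 with −log10 q at least 2 and 5 and 11 at 20 points, and 16 were lower by gene body alone. Windows, 4 and 3, became 14 and 16 at 50 kb, 0 and 0 at 20 points, and 0 lower with −log10 q at least 2. Of the 23 named genes that differed between the lists, 14 showed no difference with −log10 q at least 2. Vmn1r238 reversed to a rise of 4.79 points with −log10 q at least 2. The cause of these shifts was not tested, except that higher thresholds leave fewer peaks.

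No paired analysis was possible because only 1 library stood in each group. No replicate was left out for the same reason. Depth is unknown, and intervals cover counting error only. Gaps in the assembly were not subtracted.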
